A study of Rattus norvegicus with 6 samples.

Results

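The transcriptional co-activators YAP and TAZ, their DNA-binding partner TEAD1, and 7 genes known as their targets or feedback regulators were examined in primary rat dorsal root ganglion cells grown in high glucose. The 10 genes were chosen by name from the mRNA table, namely Yap1, Wwtr1 (the gene of TAZ), Tead1, Ctgf, Cyr61, Ankrd1, Amotl2, Ajuba, Lats2 and Nuak2. All 10 of the 16551 genes in that table were found, each on 1 row, and all 10 had reads in every sample. RNA was sequenced from 3 samples of cells in control medium and 3 samples of cells diluted into medium with glucose at 45 mmol/L, both lysed after 48 h. The cells came from the ganglia of rats of unstated strain, age and genotype. How much glucose the control medium held is not given, nor is a control for osmolarity. High glucose is here the reading of the title DM, an abbreviation left unexplained. Whether the samples of a group are separate cultures or animals is also not given, so the p-values rest on a spread between samples that may be only technical.

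The Hippo pathway is a kinase cascade that holds cell growth in check and reads cell contact and mechanical tension. The kinases MST1 and MST2 activate LATS1 and LATS2, which phosphorylate YAP and TAZ, keep them out of the nucleus and mark them for degradation. When the cascade is quiet, YAP and TAZ enter the nucleus, bind TEAD factors and switch on genes such as Ctgf and Cyr61. Several targets, Lats2 and Amotl2 among them, encode inhibitors of YAP and so close a feedback loop. In peripheral nerve, YAP and TAZ are known to act in Schwann cells during axonal sorting and myelination.

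The TEAD factors recognise the motif GGAATG, also called the MCAT element in its reverse complement CATTCC. Promoters from the RefSeq table of build GRCr8, which is not the build of the count data, were matched by symbol or synonym for 7 of the 10 genes and read from 250 bases before to 50 bases after each annotated start. Of the 7, 6 held at least 1 TEAD match, and Wwtr1 held none. Over all 33469 promoters of that length in the table, 14.2% held a match, as did 11.7% of the 13189 whose symbol was in the mRNA table. Ctgf held 3 matches, all on its own strand, a number reached or passed by 32 of the 33469 promoters. The sequences are shown because they hold the letters of the TEAD motif in the promoters of the genes measured here. Each reads 5′ to 3′ on the gene strand with TEAD matches in capitals. For Ctgf and Cyr61 the whole 250 bases before the start are given, and for the others the match with up to 20 bases on either side.
Ctgf (chr1:22624615-22624864, strand -): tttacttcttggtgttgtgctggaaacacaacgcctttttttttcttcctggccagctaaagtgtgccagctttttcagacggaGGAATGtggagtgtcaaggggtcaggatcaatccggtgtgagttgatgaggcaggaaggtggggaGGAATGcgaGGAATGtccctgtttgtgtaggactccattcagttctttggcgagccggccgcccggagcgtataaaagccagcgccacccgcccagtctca
Cyr61 (chr2:237225690-237225939, strand -): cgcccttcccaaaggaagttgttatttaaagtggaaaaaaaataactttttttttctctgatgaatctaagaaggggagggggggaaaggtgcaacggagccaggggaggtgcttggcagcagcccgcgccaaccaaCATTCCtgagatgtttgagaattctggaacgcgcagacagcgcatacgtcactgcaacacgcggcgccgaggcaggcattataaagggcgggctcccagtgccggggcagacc
Amotl2 (chr8:112182530-112182575, strand +): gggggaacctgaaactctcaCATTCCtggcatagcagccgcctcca
Nuak2 (chr13:46305758-46305803, strand +): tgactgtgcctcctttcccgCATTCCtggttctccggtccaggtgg
Ajuba (chr15:32000253-32000292, strand -): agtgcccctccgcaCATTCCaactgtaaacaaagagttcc
Yap1 (chr8:13451528-13451573, strand -): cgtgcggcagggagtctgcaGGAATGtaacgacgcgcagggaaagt

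The Ctgf matches began 166, 101 and 92 bases before the start, and the single match of Cyr61 began 113 bases before it. The match of Amotl2 was the closest to a start, at 76 bases, and those of Ajuba and Nuak2 were the farthest, at 236 and 228 bases. Yap1, the member that rose in high glucose, also held a match, at 116 bases. The AP-1 motif TGANTCA and the CArG box bound by SRF, searched on both strands, had no match in any of the 7 promoters, so no TEAD match overlapped one. These motifs stood in 7.33% and 1.64% of all promoters. A match is a description of the letters and not a measured binding site, and several of these genes became known as targets through such elements.

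**Figure D1:**
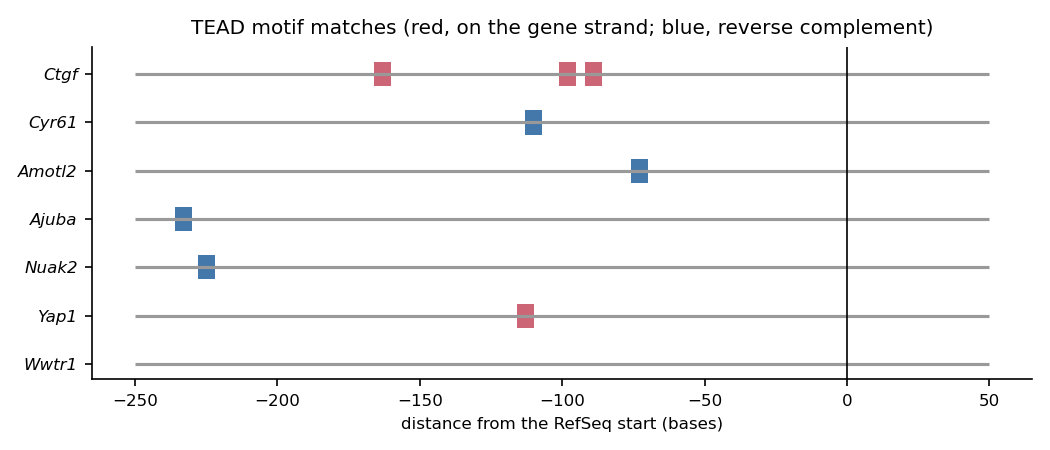
Positions of TEAD motif matches (bars, drawn to scale) in the 7 member promoters, from 250 bases before to 50 bases after the RefSeq start (x axis, bases). Red bars lie on the gene strand and blue bars are the reverse complement. Ctgf carries 3 matches, 5 genes carry 1 and Wwtr1 carries none.

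Most read-out genes of the pathway were lower in high glucose, while the genes of the co-activators differed by little. Of the 10 genes, 8 fell, 1 (Yap1) rose and 1 (Wwtr1) did not pass the test, which was limma with Benjamini-Hochberg adjustment over all 16551 genes at a threshold of 0.05. Over all genes, 25.5% fell and 24.9% rose, 50.5% in all. The 3 control and 3 high-glucose values did not overlap for any of the 10 genes, with 9 lower and 1 higher in high glucose. Such a gap was seen for 57.6% of all genes, 28.9% lower and 28.7% higher. The median log2 fold change, high glucose minus control, was -0.39 over the 10 genes and 0.01 over all genes. Nuak2, a stress-activated kinase, fell most (2.18-fold), and Cyr61 and Ctgf, secreted matrix-associated proteins, fell 1.54-fold and 1.37-fold. Of all genes, 7.3% fell by at least 1.5-fold and 3.5% by at least 2-fold. Levels below are log2 CPM, reads divided by a scaled library size and put on a log2 scale, and are compared between samples of 1 gene only, since they are not corrected for gene length. Fewer cells of a type and less RNA per cell cannot be told apart in these bulk samples.

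Libraries held 28780612 to 33108451 reads in the mRNA table. The deposited scaling multiplied library sizes by 0.959 to 0.964 in control and by 1.03 to 1.05 in high glucose, so on plain library totals the median of all genes moved up by 0.11 on the log2 scale. Changes of that size or smaller therefore depend on the scaling. On plain totals 67.6% of the calls over all genes were higher in high glucose, against 49.4% with the deposited scaling. No library stood apart from its group: correlations across genes were 0.985 to 0.986 within groups and 0.972 to 0.974 between groups.

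Ctgf (ENSRNOG00000015036) and Cyr61 (ENSRNOG00000014350) belong to the CCN family of secreted proteins that bind integrins and growth factors, and both are the usual read-outs of YAP and TAZ activity. Ctgf stood at 11.74, 11.75 and 11.72 log2 CPM in the control samples and at 11.25, 11.28 and 11.32 in high glucose. Every high-glucose sample lay below every control sample, with a gap of 0.40 between the nearest of them. The log2 fold change of Ctgf was -0.45 ± 0.02 (SE, n = 3 per group, limma adjusted p = 2.32e-10), on 300893 control and 238277 high-glucose reads. Cyr61 stood at 10.54, 10.51 and 10.48 log2 CPM in control and at 9.87, 9.84 and 9.96 in high glucose. Its groups were apart as well, by 0.52, and its log2 fold change was -0.62 ± 0.03 (limma adjusted p = 4.51e-10). After quantile normalization the differences were smaller, -0.25 for Ctgf and -0.36 for Cyr61, and both calls held.

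Ankrd1 (ENSRNOG00000018598) encodes a nuclear ankyrin repeat protein that is best known in heart and skeletal muscle under load. It was scarce here, with 86 to 131 reads per sample. Its level was 2.07, 2.09 and 2.00 log2 CPM in control and 1.53, 1.79 and 1.75 in high glucose, so that high glucose 1 lay farthest below the controls. The log2 fold change was -0.36 ± 0.13 (limma adjusted p = 0.0289). This call was lost without control 1 (adjusted p = 0.0655), control 2 (0.0762) or high glucose 1 (0.11) and on plain library totals (0.118), and over all its alternatives the adjusted p ran from 0.0107 to 0.118.

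**Figure D2:**
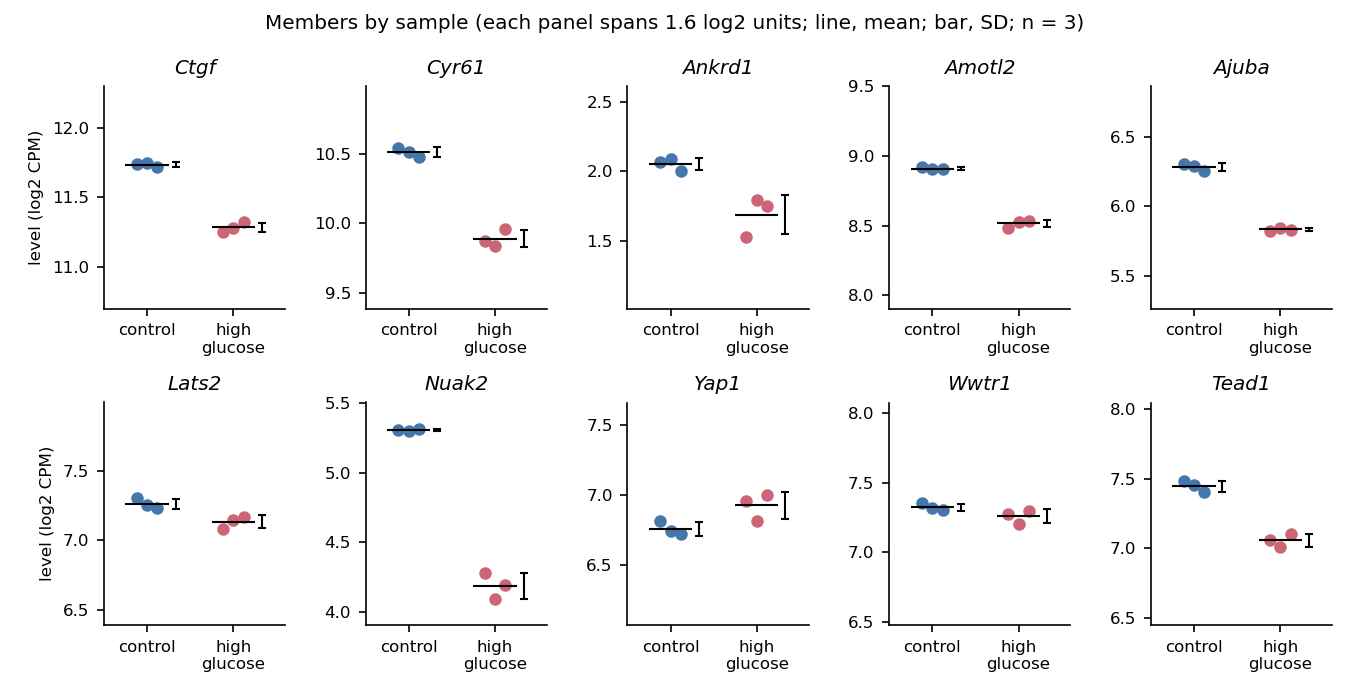
Level of each of the 10 genes (y axis, log2 CPM, every panel spanning the same range of log2 units) in the 3 control samples (blue) and the 3 high-glucose samples (red), with the mean (line) and SD (bar). The groups lie clearly apart for Nuak2, Cyr61, Ctgf, Ajuba, Amotl2 and Tead1 and nearly touch for Yap1 and Wwtr1.

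Nuak2, Amotl2, Ajuba and Lats2 act back on the pathway. With the deposited scaling all 4 fell, beside 25.5% of all genes, by amounts that ran from 1.09-fold to 2.18-fold. The call of Lats2 was lost on plain library totals. Nuak2 (ENSRNOG00000000034), a kinase related to AMPK that is both a YAP target and a promoter of YAP activity, stood at 5.31, 5.30 and 5.32 log2 CPM in control. In high glucose it stood at 4.28, 4.09 and 4.19. The gap between its groups, 1.02, was the widest of the 10 genes and many times the SD of 0.0088 in control and 0.092 in high glucose. The log2 fold change of Nuak2 was -1.12 ± 0.05 (limma adjusted p = 6.92e-10), a value below which 4.37% of all genes lay.

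Amotl2 (ENSRNOG00000008487), an angiomotin-like scaffold that holds YAP in the cytoplasm and at junctions, stood at 8.92, 8.90 and 8.91 log2 CPM in control and at 8.49, 8.53 and 8.53 in high glucose. Its log2 fold change was -0.40 ± 0.02 (limma adjusted p = 1.70e-09), and the groups were apart by 0.37. Ajuba (ENSRNOG00000012791) encodes a LIM-domain protein that binds LATS kinases at junctions and limits their activity. It stood at 6.30, 6.29 and 6.25 log2 CPM in control and at 5.83, 5.85 and 5.83 in high glucose, a log2 fold change of -0.45 ± 0.03 (limma adjusted p = 3.75e-08). The spread of Ajuba in high glucose, an SD of 0.012, was small beside the 0.41 that separated its groups.

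Lats2 (ENSRNOG00000056343), the kinase that phosphorylates YAP and TAZ, fell by far less than the others. It stood at 7.30, 7.25 and 7.23 log2 CPM in control and at 7.08, 7.15 and 7.17 in high glucose. The nearest samples of the 2 groups were 0.061 apart, and the log2 fold change was -0.13 ± 0.03 (limma adjusted p = 0.00235). On plain library totals the change was -0.017 and the call was lost (adjusted p = 0.648, within a range of 0.00125 to 0.648). Lats2 was the member whose fall was of the size of the shift between scalings.

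Yap1, Wwtr1 and Tead1 encode parts of the transcription complex. Yap1 rose, Tead1 fell and Wwtr1 did not pass. Yap1 (ENSRNOG00000005933) stood at 6.81, 6.74 and 6.72 log2 CPM in control and at 6.96, 6.82 and 7.001 in high glucose. High glucose 2 lay only 0.0062 above control 1, so the groups barely separated. Yap1 rose 1.12-fold, with a log2 fold change of 0.17 ± 0.04 (limma adjusted p = 0.00459). On plain library totals the rise was 0.28. When every gene was given 1 shared variance prior the call was lost (adjusted p = 0.0802, within a range of 3.31e-05 to 0.0802).

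Wwtr1 (ENSRNOG00000016617), the gene of TAZ, stood at 7.35, 7.32 and 7.30 log2 CPM in control and at 7.27, 7.20 and 7.30 in high glucose. The nearest samples were 0.0034 apart. The log2 fold change was -0.067 ± 0.029 with a 95% interval of -0.13 to -0.0051, and it did not pass the test (limma adjusted p = 0.068). Its direction turned on plain library totals (0.047, adjusted p = 0.157), and it passed as lower after median centring (-0.090, adjusted p = 0.0291) and without high glucose 3 (-0.087, adjusted p = 0.029), within a range of 0.029 to 0.302. Tead1 (ENSRNOG00000015488), the factor that brings YAP and TAZ to DNA, stood at 7.48, 7.45 and 7.40 log2 CPM in control and at 7.06, 7.01 and 7.11 in high glucose. It fell 1.31-fold, with a log2 fold change of -0.39 ± 0.03 (limma adjusted p = 1.51e-07) and a gap of 0.30 between the groups.

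**Figure D3:**
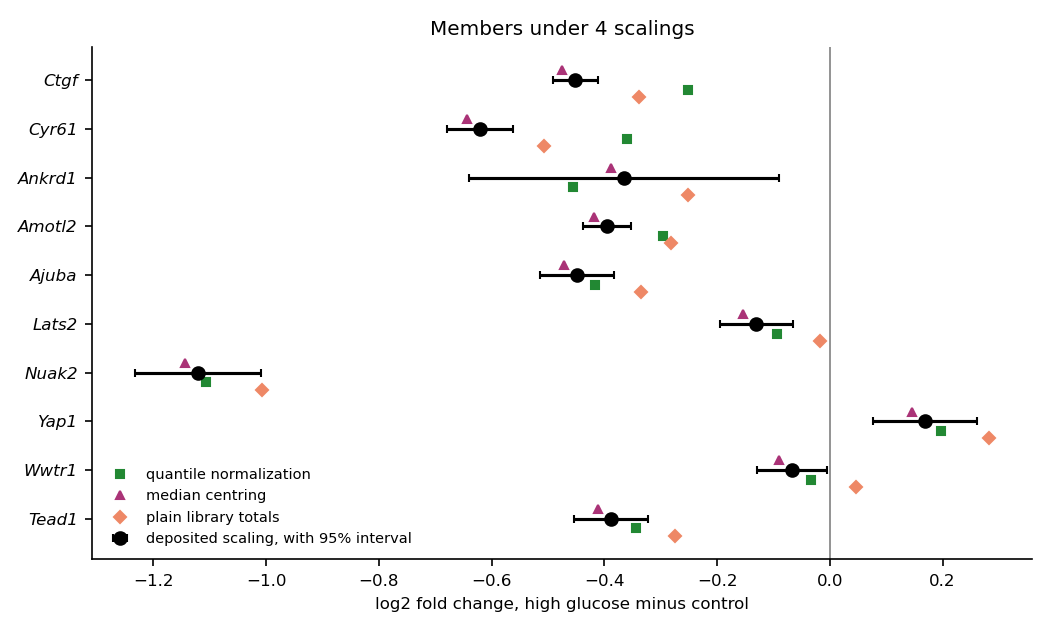
Log2 fold change of each of the 10 genes (x axis, high glucose minus control) with the deposited scaling (black, with its 95% interval) and under quantile normalization (green), median centring (purple) and plain library totals (orange). Wwtr1 changes side of 0 on plain totals, where Lats2 comes close to 0, while Nuak2 stays between -1.14 and -1.01.

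Ratios of related genes within a sample are not touched by a single scaling factor for its library, and 5 were formed. They are ratios of reads without correction for length, so only their change is read. The log2 ratio of Yap1 to Wwtr1 was -0.54, -0.58 and -0.58 in control and -0.31, -0.39 and -0.30 in high glucose, a rise of 0.24 with no overlap between groups. The log2 ratio of Amotl2 to Amotl1, its paralog in the angiomotin family, was 2.42, 2.48 and 2.44 in control and 1.66, 1.74 and 1.61 in high glucose, a difference of -0.78. Each high-glucose sample thus had fewer Amotl2 reads for each Amotl1 read than any control sample.

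The log2 ratio of Cyr61 to Ctgf differed by -0.17, from a control mean of -1.22 ± 0.02 (SD, n = 3) to -1.39 ± 0.04, with no overlap. For Tead1 to Tead3 the difference was -0.10, from 0.71 ± 0.02 to 0.61 ± 0.04, also with no overlap. The log2 ratio of Lats2 to its paralog Lats1 was 0.05 ± 0.03 in control and 0.00 ± 0.06 in high glucose, and the groups overlapped. By exact two-sided permutation tests p was 0.1 for the first 4 ratios, which is the smallest that 3 samples against 3 allow, and 0.3 for Lats2 to Lats1. Adjusted over the 5 ratios these were 0.125 and 0.3, so none could reach 0.05. After quantile normalization the Cyr61 to Ctgf difference was -0.11.

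**Figure D4:**
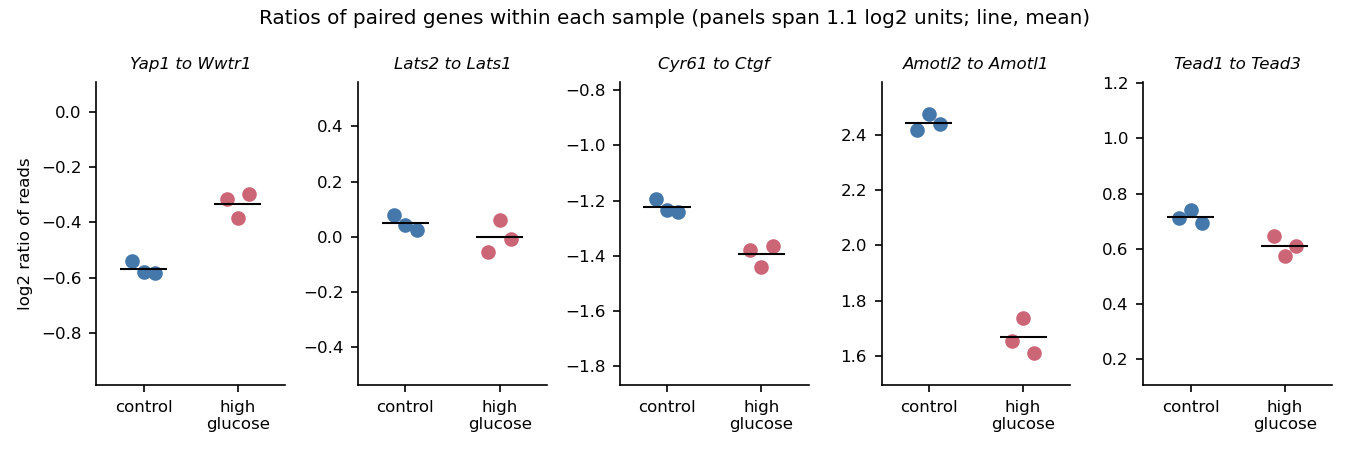
Log2 ratio of reads of 2 related genes in each sample (y axis, every panel spanning the same range), in control (blue) and high glucose (red), with group means as lines. The ratio of Amotl2 to Amotl1 differs most, by -0.78, and that of Yap1 to Wwtr1 rises by 0.24, while the groups overlap for Lats2 to Lats1.

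The wider pathway was read from lists of genes by role. A conserved signature of YAP and TAZ targets from cancer studies has 22 genes, of which 21 were measured, 6 of them among the 10 genes above. Among the other 15 there were 10 that fell, 4 that rose and Ptpn14, which did not pass. Of all genes, 25.5% fell and 24.9% rose. The median log2 fold change of these 15 was -0.39, beside 0.01 over all genes. F3, the tissue factor that starts coagulation, fell most (-1.93 ± 0.06), followed by Igfbp3, an insulin-like growth factor binding protein (-1.50 ± 0.10). Gadd45a, a stress-induced growth arrest protein, and Fjx1 had values of -0.94 ± 0.04 and -0.65 ± 0.04. The members that rose were Nt5e, the enzyme CD73 that makes extracellular adenosine (1.20 ± 0.05), and, by small amounts, Dock5 (0.18 ± 0.03), Asap1 (0.16 ± 0.03) and Arhgef17 (0.14 ± 0.02). On plain library totals the last 3 stood at 0.29, 0.27 and 0.26, and after quantile normalization Ccdc80 turned from -0.28 to 0.17. Of all 21 measured genes, 16 were lower and 4 higher with the deposited scaling. These counts were 14 and 4 on plain library totals, where 17.2% and 35.8% of all genes were called. After quantile normalization they were 15 and 5.

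Genes upstream of LATS that sit at junctions and the membrane were mixed. With 15 of them measured, 7 were called lower and 3 higher, beside 25.5% and 24.9% of all genes, and the median log2 fold change was -0.11. The members Amotl2 and Ajuba are among the 7. Of the other 13 genes 5 fell and 3 rose, with a median of -0.061. On plain library totals 7 were lower and 5 higher, where 17.2% and 35.8% of all genes were, and the median was 0.0035 beside 0.13 over all genes. The angiomotin genes, whose products bind YAP, split: Amot fell (-1.16 ± 0.03) with Amotl2, and Amotl1 rose (0.38 ± 0.04). Wwc1, which encodes the LATS activator KIBRA, fell by 1.82 ± 0.30 on the log2 scale on 138 control and 42 high-glucose reads, and its paralog Wwc2 fell by 0.48 ± 0.02. Zyx, the focal adhesion protein zyxin, had a log2 fold change of -0.31 ± 0.03 (-0.19 on plain library totals). Dchs1 and Fat4, which encode a cadherin pair, had values of 0.90 ± 0.19, on 114 and 233 reads, and 0.18 ± 0.03 (0.29 on plain totals).

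The kinase cassette itself changed by small amounts in both directions. Of 14 measured, 6 fell and 5 rose, beside 25.5% and 24.9% of all genes, with a median of 0.04 and no change larger than 0.29 on the log2 scale. The member Lats2 is among these 14, and of the other 13 there were 5 that fell and 5 that rose. Stk38 (0.29 ± 0.03), Sav1, the adaptor of the MST kinases (0.26 ± 0.04), Taok2 (0.20 ± 0.03) and Nf2, which encodes merlin (0.16 ± 0.03), rose. On plain totals Taok2 stood at 0.32 and Nf2 at 0.28. Stk4, the kinase MST1, fell (-0.21 ± 0.03, and -0.099 on plain totals). Map4k4 (-0.15 ± 0.02), Mob1a (-0.11 ± 0.03) and Stk3, the kinase MST2 (-0.10 ± 0.03), were called lower with the deposited scaling but not in all alternatives, where their adjusted p ran up to 0.549, 0.919 and 0.691. The call of Stk3 was also lost without control 2, without control 3 and without any single high-glucose sample. On plain totals they stood at -0.033, 0.0042 and 0.018 and were not called, and the counts of this list were 8 higher and 1 lower, where 35.8% and 17.2% of all genes were called. After quantile normalization they were 5 higher and 2 lower.

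Of the 8 measured genes of the transcription module, Yap1, Wwtr1 and Tead1 among them, 4 were lower, 1 was higher and 3 did not pass. Of the other 5, 3 were lower and 0 higher. These counts stand beside 25.5% of all genes lower and 24.9% higher, and the 5 called of 8 beside 50.5% called. On plain totals 2 of the 8 were lower and 1 higher, where 17.2% and 35.8% of all genes were. After quantile normalization 2 were lower and 1 higher, where 24.7% of all genes were lower and 50.3% of all calls were higher. After median centring 6 were lower and 1 higher, beside 27.6% and 22.8% of all genes. With the shared variance prior 2 were lower and 0 higher, beside 22.3% and 22.2% of all genes. Beside Tead1, Tead3 fell (-0.28 ± 0.03, and -0.17 on plain totals). Tead4 (-0.15 ± 0.05, adjusted p = 0.0265) and the TEAD cofactor Vgll3 (-0.10 ± 0.04, adjusted p = 0.0293) passed with the deposited scaling, but their adjusted p ranged up to 0.576 and 0.828 over the alternatives. Both calls were lost without control 1 (Tead4 also without control 2 or high glucose 1) and without high glucose 2. Vgll3 turned to 0.010 on plain totals. Tead2 and Vgll4 did not pass, but Vgll4 passed as lower after median centring (-0.13, limma adjusted p = 0.049) and without control 1.

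Ctgf and Cyr61 were not followed by their whole family. Of the other CCN genes, Nov, which encodes CCN3, fell by 0.90 ± 0.03 on the log2 scale, while Wisp1 (CCN4) rose by 0.21 ± 0.02 and Wisp2 (CCN5) by 0.11 ± 0.02. On plain totals the 2 rises stood at 0.32 and 0.22. Wisp3 had 5 control and 6 high-glucose reads, too few to compare. Across the 6 CCN genes 3 fell and 2 rose under the deposited scaling, quantile normalization, median centring and plain totals alike. Over these scalings 17.2% to 27.6% of all genes were called lower and 22.8% to 35.8% higher. Ctgf and Cyr61 are 2 of the 3 that fell, and of the other 4 genes 1 fell and 2 rose with the deposited scaling.

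**Figure D5:**
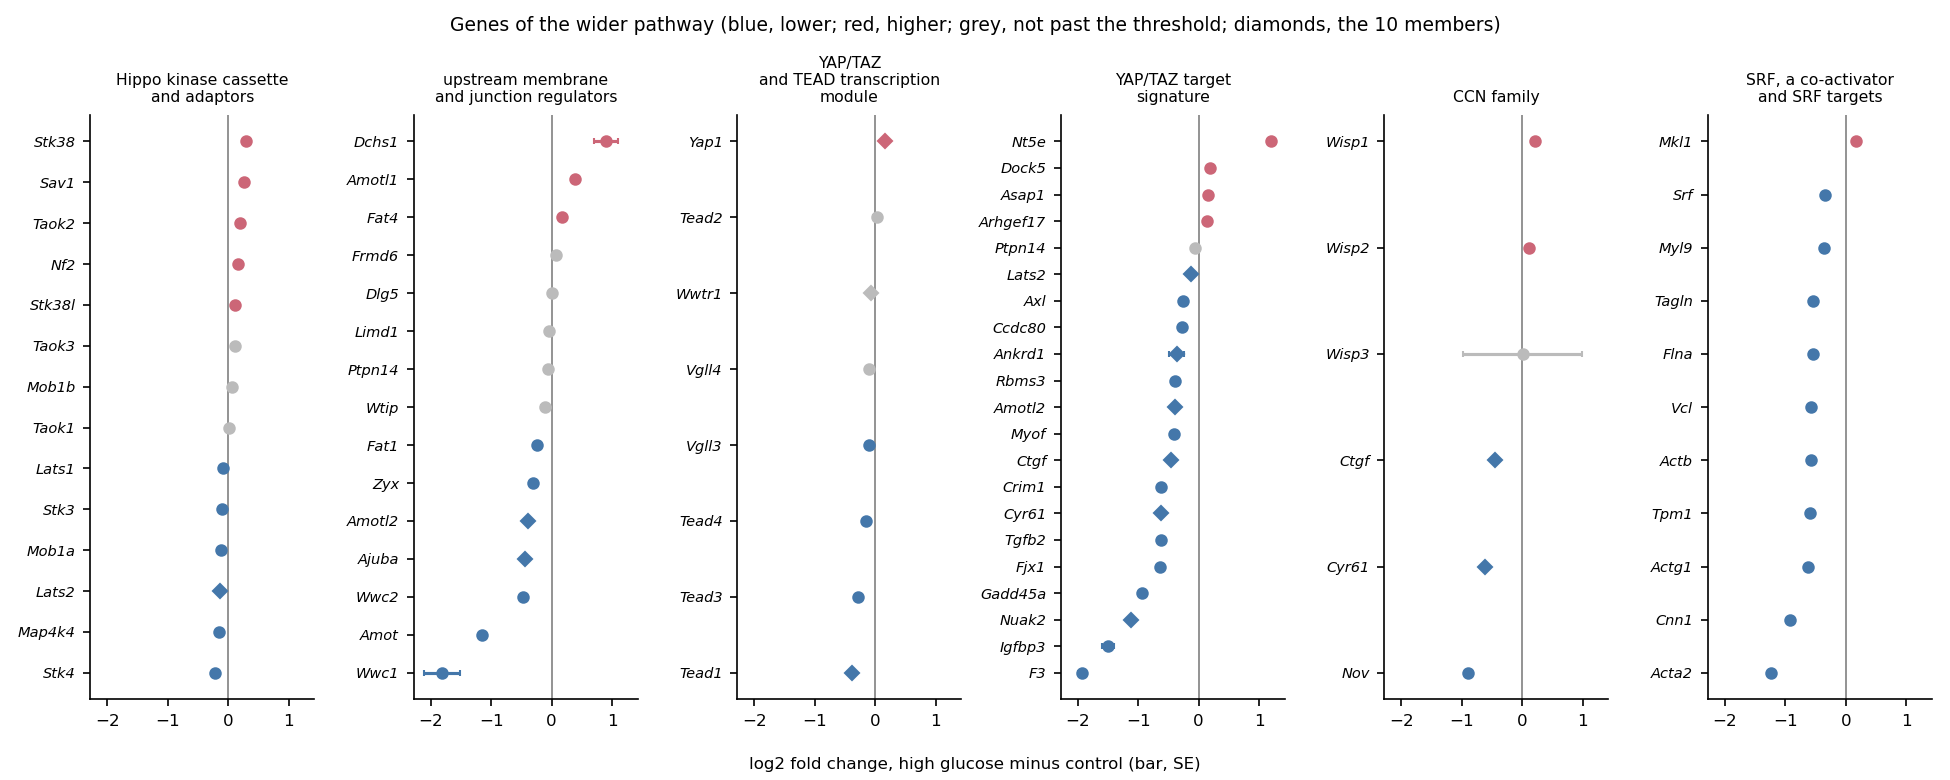
Log2 fold change (x axis, high glucose minus control, bars are SE) of each measured gene of 6 lists, in blue where it passed as lower, red where it passed as higher and grey where it did not pass, with the 10 genes of the report as diamonds. Kinase cassette genes lie close to 0 on both sides, while 16 of 21 target signature genes and 10 of 11 genes of the SRF list lie lower.

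The factor SRF controls genes of the actin cytoskeleton, and a list of SRF itself, a co-activator and 9 such targets was read in the same comparison. Of these 11 genes, 10 fell and 1 rose, beside 25.5% and 24.9% of all genes. The median was -0.57, beside 0.01 over all genes. After quantile normalization 9 fell, beside 24.7% of all genes, with a median of -0.33. Tagln (-0.54 with the deposited scaling) was given the same value in every sample by that method, so it could not be called there. The smooth muscle actin gene Acta2 (-1.23 ± 0.01) and calponin, Cnn1 (-0.92 ± 0.02), changed most, followed by Actg1 (-0.63 ± 0.02) and Tpm1 (-0.59 ± 0.01, and -0.34 after quantile normalization). Actg1 is similar in sequence to Actb, and whether reads were split between them was not tested. Mkl1, which encodes an SRF co-activator released by actin assembly, rose (0.17 ± 0.03, and 0.28 on plain totals).

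Marker genes of several cell types moved as well. The counts below stand beside 25.5% of all genes that fell and 24.9% that rose. The 6 Schwann cell markers all fell, and their summed level went from 462 to 483 CPM in control to 283 to 313 in high glucose. Of 6 mural and smooth muscle markers, 4 fell and 1 rose, with sums of 1660 to 1683 and 756 to 790 CPM. Of 5 fibroblast markers measured, 3 rose and 2 fell, with sums of 34398 to 36791 and 26811 to 29315 CPM. Lum (2.15), Dcn (1.23) and Pdgfra (0.88) rose on the log2 scale, while Col1a1 (-0.41) and Thy1 (-0.15) fell. A sum weighs the most abundant genes most, so it can move against the count. Quantile normalization gives a gene of the same rank in every sample the same value. It did so for Col1a1 (-5.0e-15), which therefore could not be called there. Thy1 was not called on plain library totals (limma adjusted p = 0.168). All 5 cycling cell markers fell, from 908 to 921 CPM to 786 to 795 CPM. On plain library totals 3 of them passed as lower, where 17.2% of all genes did. Of 5 satellite glia markers 3 fell and 1 rose (84.3 to 86.3 and 111 to 120 CPM). Fabp7 (-1.20), Cdh19 (-0.92) and Gfap (-0.73) fell on the log2 scale, while Glul rose (0.90). The call of Gfap was lost without control 1 or control 2. Of 4 macrophage markers 1 rose (8.09 to 8.86 and 10.4 to 11.4 CPM). None of 3 endothelial markers passed.

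Neuron markers were scarce. Their 8 genes summed to 88.5 to 93.1 CPM in control and 58.5 to 59.2 in high glucose. Of the 8, 5 fell and none rose, beside 25.5% and 24.9% of all genes. Rbfox3, the gene of the neuronal nuclear protein NeuN, had 6 control and 9 high-glucose reads, and Rbfox3, Snap25 and Isl1 were at 0 in at least 1 library, as was the endothelial gene Kdr. The part of cell composition in the changes of the 10 genes was not tested.

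Genes whose 6 centred log2 values lay closest to those of Ctgf, by Euclidean distance over the 6 samples, were Pabpc4 (distance 0.032), Eif1 (0.036), Ptprd (0.039), Rras (0.044) and Odc1 (0.044). Closest to Cyr61 were Fras1 (0.041), St6gal1 (0.051), Slc22a23 (0.054), Hist1h1d (0.058) and Pus7 (0.059). The measure tells few genes apart: 831 genes lay within 0.2 of Ctgf and 345 within 0.2 of Cyr61. The log2 fold changes of the 5 genes nearest to Ctgf lay between -0.48 and -0.44, and those of the 5 nearest to Cyr61 between -0.63 and -0.58. Both ranges follow from picking the genes by this distance and are no separate result.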

How the data were processed

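RNA of 3 control and 3 high-glucose samples was used, grouped by title. The build Rnor_6.0 and the tools HISAT2 2.1.0, featureCounts 1.6.0 and fastp 0.19.4 are named per the submitters' processing notes. Their roles and settings, the annotation and the strand of counting were not given in the sources used here. The authors deposited log2 values that are voom-normalized per the file names. Of the deposited values, 100% equalled log2 CPM of whole reads plus 0.5 in a scaled library, within 0.01 read, so reads were worked back. The lncRNA table holds none of the 10 genes and was not used.

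Tests used limma 3.58.1 in R 4.3.3 on the deposited log2 values, with group as the term and a mean-variance trend, two-sided, with Benjamini-Hochberg adjustment over 16551 genes and a threshold of 0.05. SE, intervals and adjusted p-values come from that fit. It was tested on simulated data before use. Ratios were tested by exact permutation. A symbol on several rows was read at the row with the highest mean. Promoter sequences are from RefSeq (GRCr8) and were matched by symbol or synonym. Figures were drawn with matplotlib 3.10.9.

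Members and lists were chosen with earlier results of these data known. Named were all members, up to 4 other genes per list and direction with the largest change past the threshold, all genes of lists of at most 6, and the 5 nearest genes to Ctgf and to Cyr61 among genes averaging 0 or more on the log2 scale. Ptpn14, Ccdc80, Fat1, Tagln, Tead2, Vgll4 and marker genes were named after their values were seen.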

Additional observations from a re-analysis of the deposited data

How the results depend on the processing

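The alternatives were 2 filters on low values, 3 other scalings, 2 other pseudocounts, 2 other variance models, a replicate block and leaving out each sample in turn. Ctgf, Cyr61, Amotl2, Ajuba, Nuak2 and Tead1 kept their direction and call in all 16 alternatives each. The number of the 10 genes called lower lay between 6 (plain library totals) and 9. Of all genes, 17.2% were called lower on plain library totals and 25.5% with the deposited scaling. After median centring, where 9 of the 10 were lower, 27.6% of all genes were. With a single variance prior the number called higher was 0 in place of 1 (Yap1). Wwtr1 turned to 0.047 on plain library totals. The cause was not tested beyond the shift of all genes there. Summing the rows of a symbol was not run, because each of the 10 genes has 1 row. With a replicate block 8052 genes were called in place of 8354 and the same numbers of members, 8 lower and 1 higher. Deviations of same-numbered samples correlated at -0.092, -0.043 and 0.025, so the numbers were not taken to pair samples, and the block changed no call among the 10 genes. Of the genes named in the lists, Stk3 and Ankrd2 lost their calls with the block. Of the 10 genes, depth limits Ankrd1 most, at 86 to 131 reads per sample.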

Other observations

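Ankrd1 has 2 relatives in the family of stress-responsive ankyrin repeat proteins of muscle, and both were scarcer in reads. Summed over a group, Ankrd2 had 8 control and 27 high-glucose reads, with a log2 fold change of 1.40 ± 0.51 (limma adjusted p = 0.0357), which lay opposite in sign to that of Ankrd1. The call was lost after quantile normalization, with a replicate block and without control 2, control 3 or high glucose 2, within a range of adjusted p from 0.0236 to 0.181. Ankrd23 had 67 and 65 reads and did not pass (-0.14 ± 0.29, limma adjusted p = 0.73). The difference between Ankrd1 and Ankrd2 was not tested.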
